A study of Caenorhabditis elegans with 4 samples.

Results

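The major sperm protein (MSP) family of Caenorhabditis elegans was examined in RNA-seq of whole wild-type (N2) animals grown with or without ketamine. Members were the protein-coding rows of the deposited gene count table whose WormBase symbol starts with msp-, msd- or ssp-. The rule gave 46 members among 20528 protein-coding rows and 46643 rows in all. They comprised 30 msp genes, 4 msd genes and 12 ssp genes. Control animals received M9 buffer as the vehicle (0 mM ketamine) and treated animals received 2.5 mM ketamine from the first larval stage. Both groups were fed OP50 bacteria at 25 °C and were collected at adult day 1. The study describes slowed development of ketamine-treated animals. The mix of stages within each library is not given in the sources used here, so a difference in stage and a response to ketamine cannot be told apart. Each group had 2 libraries, and nothing in the sources used here says that they came from separate cultures, so every p-value below measures only the spread between these libraries. The comparison asked whether transcripts of the family differed between ketamine-treated and control animals.

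MSP is the main cytoskeletal protein of the nematode's amoeboid sperm, which crawl by assembling and disassembling MSP filaments instead of actin. In hermaphrodites sperm are made in the last larval stage, after which the germline switches to oocytes. MSP is also released from sperm as a signal that triggers oocyte maturation and contraction of the gonadal sheath, in part through the ephrin receptor VAB-1. MSP is encoded by many near-identical genes. The msd genes encode small proteins with an MSP domain, and the ssp genes encode sperm-specific proteins with an MSP-like domain.

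The count totals of the 4 libraries lay between 29.2 and 43.4 M. Where a pair of values is given for a group below, library 1 comes first and library 2 second. Log2 CPM (counts scaled by library size) correlated at 0.962 across genes between the control libraries and at 0.988 between the ketamine libraries, so the controls were the less alike pair. A gene entered the test if 2 or more libraries held 10 or more of its counts, which left 15793 genes. Over these, edgeR (quasi-likelihood test, Benjamini-Hochberg adjusted p) called 15 genes higher under ketamine (0.095%) and 0 lower (0%), where a call needed an adjusted p under 0.05 and at least a 2-fold change.

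The members share a compact gene form and a narrow genomic placement that the rule did not use. In the WBcel235 build, 13 of the 30 msp genes lie on chromosome II and 17 on chromosome IV. Of all 46 members, 84.8% lie on these chromosomes, against 33.6% of all protein-coding rows, and 0 lie on the X chromosome, against 13.8%. The ssp genes were more scattered, with 6 on chromosome IV, 4 on chromosome I and 2 on chromosome V, and msd-4 was the only member on chromosome III. Of the members, 43 have a single exon (93.5%), compared with 2.9% of the 20143 protein-coding rows with an exon number, and ssp-32, ssp-36 and ssp-37 have 2. Their median gene length was 451.5 bases (range 234 to 573), against 1086.5 bases over all protein-coding rows. The transcription factor family column of the deposited table placed 45 of the 46 in its Motile_Sperm class, which held 108 protein-coding rows, and msp-74 was the exception. Another member starts within 10 kb of 27 of the 46.

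Of the 46 members, 43 passed the count filter (28 msp, 4 msd and 11 ssp). The remaining members were close to undetected. The gene msp-32 was listed with 0 and 1 counts in controls and with 0 in both treated libraries. The gene msp-74 had 2 and 7 counts in controls and 3 and 2 under ketamine. The copy of ssp-9 with the sequence name E03H12.10 had 5 and 3 counts in controls and 2 and 1 under ketamine. These members add almost nothing to the totals of the family. WormBase gives the symbol ssp-9 also to T28H11.6, and the symbol msd-1 to both F44D12.3 and F44D12.7, so these genes are named with their sequence names.

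The family as a whole was lower in both ketamine libraries than in both controls. Summed over its 46 members, it amounted to 489 and 428 CPM in controls against 301 and 244 CPM with ketamine, on CPM scaled by the trimmed mean of M-values (TMM). The mean was 458 ± 43.3 CPM in controls and 273 ± 40.6 under ketamine (SD, n = 2 each). The difference of the mean log2 sums was -0.75, which corresponds to 59.3% of the control level. Both ketamine sums were below both control sums. A two-sided exact permutation test gave p = 0.333, the smallest value that 2 against 2 libraries allow. As a share of all counts, the family took 0.0519% and 0.0413% in controls and 0.0297% and 0.0241% under ketamine. In RNA from whole animals, fewer sperm-forming cells and less MSP mRNA per cell cannot be told apart.

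The msp genes, which encode MSP itself, made up most of this amount. Their sum was 420 and 366 CPM in controls against 251 and 203 CPM with ketamine. The mean was 227 ± 34.5 CPM under ketamine and 393 ± 37.8 CPM in controls (SD, n = 2 each). The difference of the mean log2 sums was -0.80, which corresponds to 57.6% of control. The 4 values fell into separate ranges by group, with an exact permutation p = 0.333. With control 1 left out the log2 difference was -0.70, and with control 2 left out it was -0.90, so the difference did not rest on either control library. A sum over near-identical copies does not depend on which copy a read was given to, while the value of a single copy does. Reads that match several copies may also have been dropped, which would lower the sum as well.

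The ssp and msd sums were smaller. The 12 ssp genes summed to 51.2 and 41.3 CPM in controls against 34.9 and 27.5 CPM with ketamine, a log2 difference of -0.57 (67.4% of control). The 4 msd genes summed to 17.9 and 19.9 CPM in controls against 15.1 and 13.9 CPM with ketamine, a log2 difference of -0.38 (76.7% of control). In both sums the ketamine libraries lay below both controls, and the exact permutation p was 0.333 in each.

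**Figure D1:**
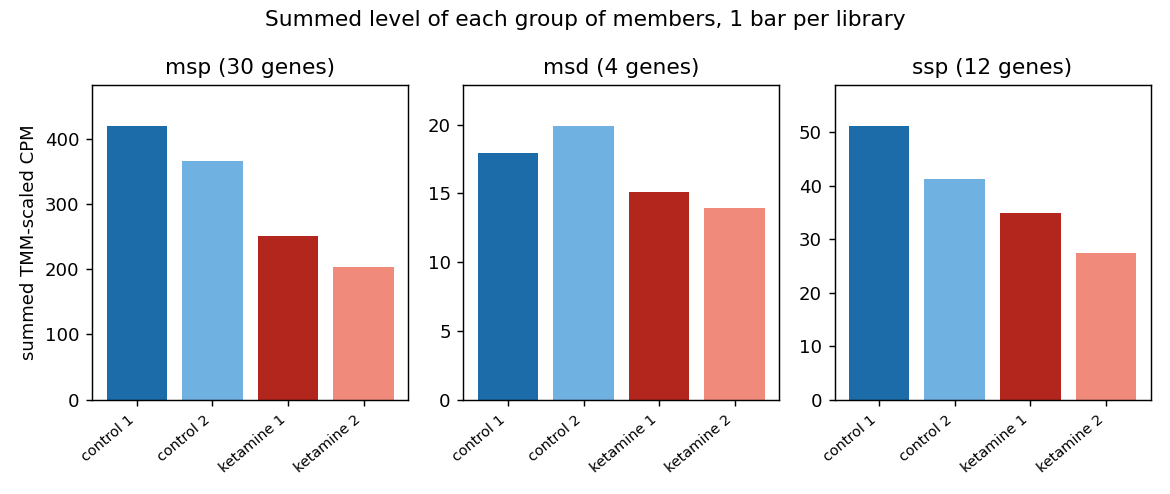
Summed TMM-scaled CPM (y axis, from 0) of the 30 msp, 4 msd and 12 ssp genes, with 1 bar for each library. In each panel both ketamine bars are lower than both control bars, and for msp they reach 251 and 203 CPM against 420 and 366 CPM.

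Gene by gene, 0 of the 43 tested members were called higher (0.095% of all tested genes) and 0 were called lower (0%) by edgeR, with adjusted p-values from 0.748 to 0.982. At an unadjusted p under 0.05 and at least a 2-fold change, 6 members were lower (msp-59, msp-79, msp-49, msp-81, msp-10 and msp-40) and 0 were higher, where 1.63% of all tested genes were lower by the same rule. DESeq2 called 0 members at its adjusted p (0.146% of all genes were called lower), with 0.0728 for msp-49 as the lowest. At an unadjusted p under 0.05 and at least a 2-fold change, DESeq2 also placed 6 members lower (1.54% of all genes). The log2 fold changes of the members nevertheless lay mostly on one side of 0. Of the 43, 39 were below 0, including all 28 tested msp genes, and the median was -0.64, beside -0.01 over all tested genes. The medians were -0.67 for msp, -0.72 for ssp and 0.03 for msd. With 1 library left out the ssp median moved to between -0.99 (without ketamine 1) and -0.40 (without ketamine 2), with -0.43 without control 1, and the msd median to between -0.54 (without control 1) and 0.41 (without control 2). Both ketamine libraries were below both controls for 32 of the 43 members (74.4%), against 20.6% of all tested genes. Both were above both controls for 0 members, against 23.1% of all tested genes, and the groups overlapped for 11 members. The 32 were made up of 23 of 28 msp, 8 of 11 ssp and 1 of 4 msd genes. Near-identical copies may share reads, so the members are not separate observations, and these shares were not tested.

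**Figure D2:**
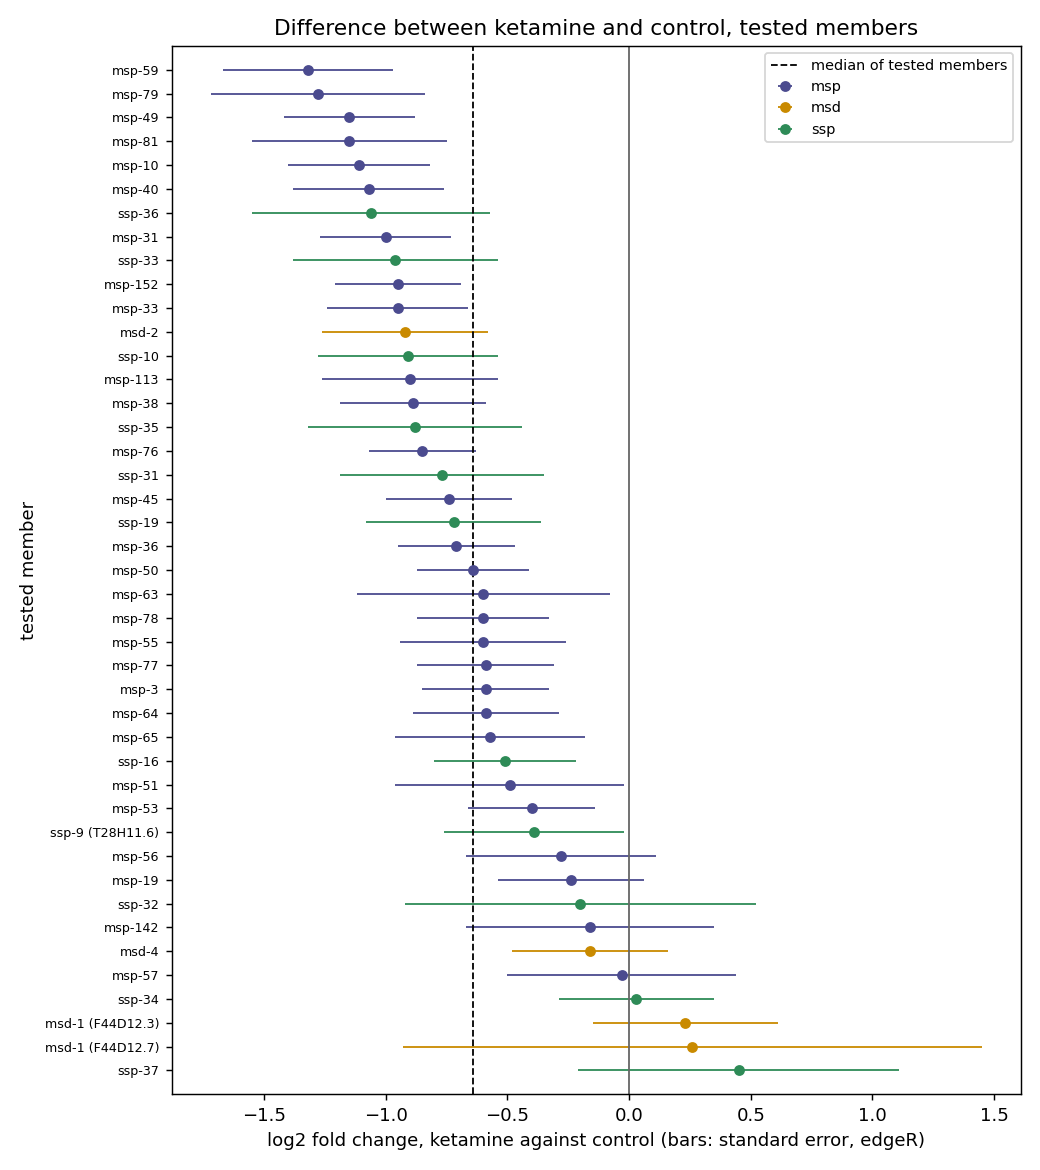
Log2 fold change of ketamine against control for each of the 43 tested members (x axis), coloured as msp, msd or ssp, with bars for the standard error from edgeR and a dashed line at the median of -0.64. The values run from -1.32 (msp-59) to 0.45 (ssp-37), and all 28 msp genes lie to the left of 0.

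The most abundant msp transcripts were also among those with both ketamine libraries below both controls. The gene msp-31 (R05F9.13, chromosome II, 4916179 to 4916562, WBcel235) had 41.3 and 28.0 CPM in controls against 18.9 and 15.9 CPM with ketamine. Its log2 fold change was -1.0 with a standard error (SE) of 0.27 (edgeR, adjusted p = 0.748). It was the highest member per length too, with 89.2 FPKM (fragments scaled by gene length and library size) on average in controls and 44.8 under ketamine, which ranked it 1997 among the 15793 tested genes by its mean of 67.0 FPKM.

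The gene msp-40 (C33F10.9, chromosome II, 4825380 to 4825845) had 39.1 and 23.2 CPM in controls against 15.5 and 14.1 CPM with ketamine (log2 fold change -1.07, SE 0.31). The gene msp-76 (ZK1251.6, chromosome IV, 9688982 to 9689436) had 29.8 and 23.9 CPM in controls against 15.6 and 14.2 CPM with ketamine (-0.85, SE 0.22). In each of these genes the ketamine libraries were close to each other and the controls were higher and further apart. The gene msp-81 (K07F5.1, chromosome IV, 9835997 to 9836451) had 38 and 18.4 CPM in controls against 14.3 and 11.2 CPM with ketamine (-1.15, SE 0.40). Its control libraries thus differed from each other by more than control 2 differed from either ketamine library.

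The lowest fold changes with separate groups belonged to msp-59, msp-79, msp-49, msp-81, msp-10 and msp-40. The gene msp-59 (ZK354.11, chromosome IV, 5312690 to 5313146) stood at the low end of the family with a log2 fold change of -1.32 (SE 0.35), from 20.8 and 11.5 CPM in controls against 6.70 and 6.24 CPM with ketamine. The gene msp-79 (T13F2.10, chromosome IV, 9766745 to 9767187) had 7.94 and 3.75 CPM in controls against 2.61 and 2.22 CPM with ketamine (-1.28, SE 0.44). Both showed a wide gap between the controls, with control 1 the higher.

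The gene msp-49 (C34F11.6, chromosome II, 5194332 to 5194792) had 21.0 and 14.9 CPM in controls against 8.17 and 8.04 CPM with ketamine (log2 fold change -1.15, SE 0.27). The gene msp-10 (K07F5.2, chromosome IV, 9837632 to 9838065) had 7.79 and 5.77 CPM in controls against 3.29 and 3.01 CPM with ketamine (-1.11, SE 0.29). For these genes the ketamine libraries were nearly equal and well below the lower control.

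The smallest reductions with separate groups were found in ssp-9 (T28H11.6), msp-53, ssp-16 and msp-65. For ssp-9 (T28H11.6) the CPM was 2.63 and 2.49 in controls against 2.44 and 1.46 with ketamine (log2 fold change -0.39, SE 0.37). For msp-53 it was 10.4 and 13.9 in controls against 9.93 and 8.45 with ketamine (-0.40, SE 0.26). In these genes ketamine 1 lay just under the lower control. For ssp-16 the CPM was 4.43 and 5.37 in controls and 3.88 and 3.01 under ketamine (-0.51, SE 0.29), and for msp-65 it was 3.30 and 4.32 in controls and 3.29 and 1.84 under ketamine (-0.57, SE 0.39). For msp-65 control 1 and ketamine 1 were nearly equal.

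Of the msp genes, 5 overlapped between groups (msp-19, msp-51, msp-56, msp-57 and msp-142), and in each control 2 was the highest library. The gene msp-57 marked the upper end of the msp fold changes at -0.03 (SE 0.47), with 5.69 and 13.7 CPM in controls against 10.6 and 8.28 CPM with ketamine. The 13 msp genes with a mean of at least 10 CPM had a median of -0.95 on the log2 fold change scale, and the 15 below 10 CPM had a median of -0.60. By chromosome, the median was -0.74 for the 11 tested msp genes on chromosome II and -0.60 for the 17 on chromosome IV. The controls differed between these groups too. The median log2 difference of control 2 from control 1 was -0.39 at 10 CPM or more and 0.24 below 10 CPM. By chromosome it was -0.18 on II and 0.20 on IV. These medians are descriptions, and the differences between them were not tested.

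**Figure D3:**
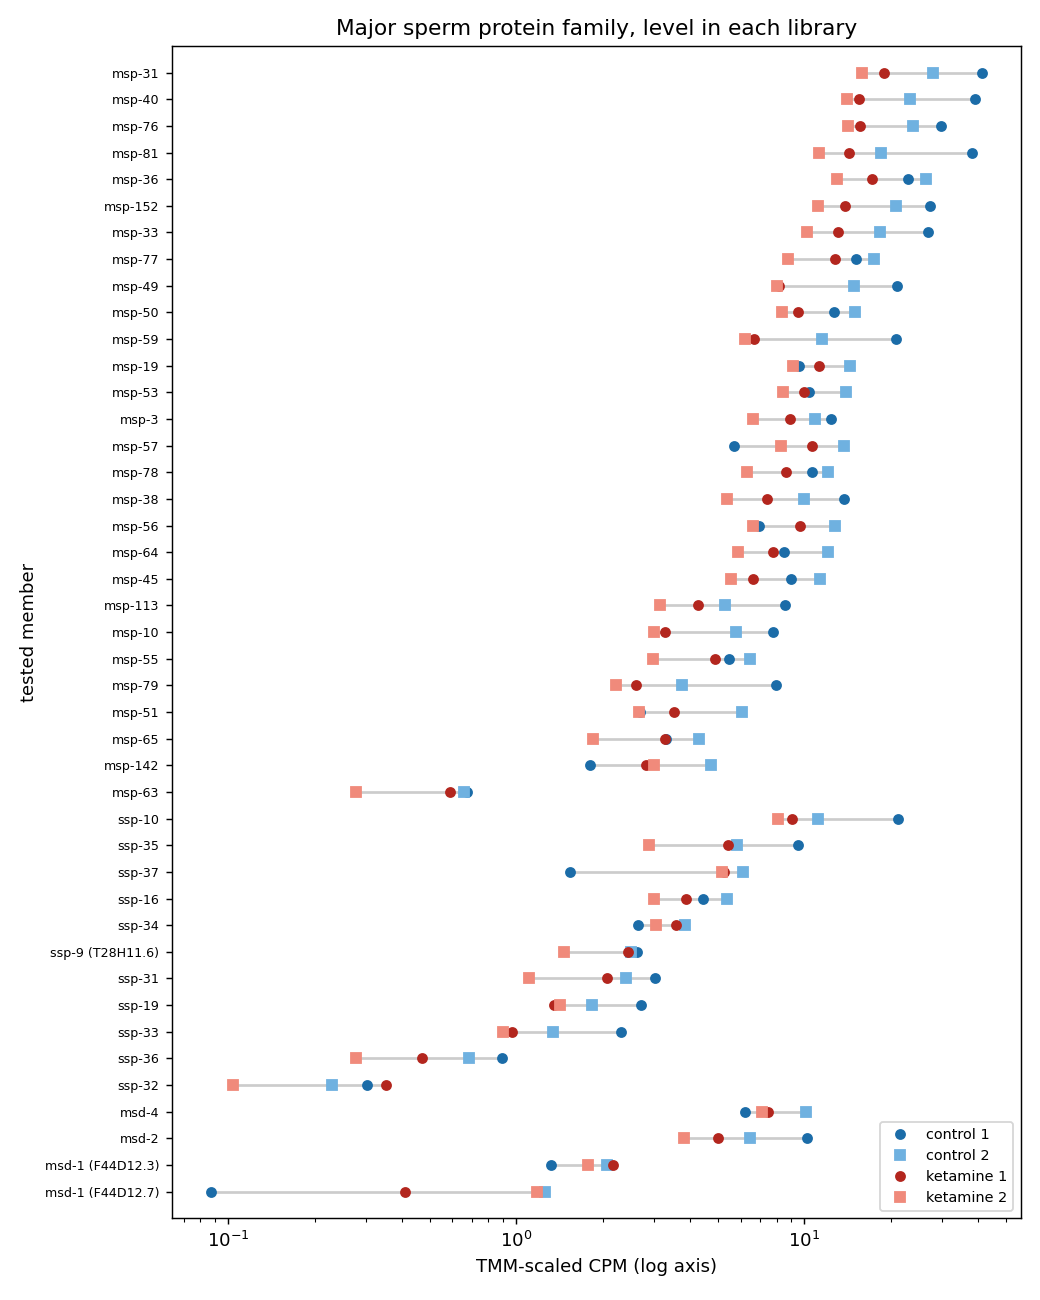
TMM-scaled CPM (x axis, log scale) of each tested member in control 1 (dark blue circles), control 2 (light blue squares), ketamine 1 (dark red circles) and ketamine 2 (light red squares), with members grouped as msp, ssp and msd and ordered by mean level. Among the most abundant msp genes both red points lie to the left of both blue points, while ssp-37, msp-57 and both msd-1 genes have control 1 at or near the left end.

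Of the 11 tested ssp genes, 9 had a log2 fold change below 0 and 2 above. The gene ssp-10 (K07F5.9, chromosome IV, 9850646 to 9851070), the most abundant, had 21.1 and 11.1 CPM in controls against 9.05 and 8.11 CPM with ketamine (log2 fold change -0.91, SE 0.37). The gene ssp-35 (F55C5.1, chromosome V, 12263368 to 12263845) had 9.53 and 5.83 CPM in controls against 5.43 and 2.88 CPM with ketamine (-0.88, SE 0.44). Both had control 1 well above the other 3 libraries. The gene ssp-37 (W02D9.5, chromosome I, 12561040 to 12561560) showed the opposite arrangement, with 1.54 and 6.12 CPM in controls against 5.26 and 5.16 CPM with ketamine, so control 1 alone was low. Its log2 fold change of 0.45 (SE 0.66) was the highest of the family and became -0.26 without control 1. The gene ssp-34 had 2.65 and 3.86 CPM in controls against 3.58 and 3.05 CPM with ketamine (0.03, SE 0.32), so its groups overlapped, and its value turned to -0.24 without control 1 and to -0.06 with upper-quartile scaling.

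Among the msd genes only msd-2 had both ketamine libraries below both controls. The gene msd-2 (F44D12.5, chromosome IV, 10029056 to 10029502) had 10.2 and 6.49 CPM in controls against 5.02 and 3.81 CPM with ketamine (log2 fold change -0.92, SE 0.34). The gene msd-4 (C35D10.11, chromosome III, 4868334 to 4868769) had 6.21 and 10.1 CPM in controls against 7.49 and 7.1 CPM with ketamine (-0.16, SE 0.32). Its ketamine libraries lay between the controls, and without control 2 its log2 fold change was 0.24. The msd-1 gene F44D12.3 had 1.32 and 2.06 CPM in controls and 2.17 and 1.77 under ketamine (0.23, SE 0.38, and -0.09 without control 1). The msd-1 gene F44D12.7 was barely detected in control 1, with 4 counts there against 44 in control 2, and had 14 and 34 counts with ketamine, and its log2 fold change of 0.26 (SE 1.19) became -0.71 without control 1.

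The control libraries did not order the members alike. Control 1 was the higher control for 23 of the 43 tested members and control 2 for 20. The log2 difference of control 2 from control 1 ran from -1.06 (msp-79) to 2.86 (F44D12.7), with a median of -0.08. Members lying side by side could differ in this: 14 pairs of adjacent tested members start within 10 kb of each other, and in 10 of them the control difference had opposite signs. In a run of 3 neighbours on chromosome IV, it was -1.04 for msp-81, -0.43 for msp-10 and 0.87 for msp-56. For the neighbours msp-51 and msp-113 it was 1.14 and -0.68. How reads of near-identical copies were assigned is not given in the sources used here, so values of single copies carry that uncertainty, and its part in these differences was not tested. Of the members, 4 overlap another protein-coding gene (msp-31, msp-33, msp-45 and ssp-35), 2 of these (msp-33 and ssp-35) on the opposite strand, and whether counting used strand is not given either.

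The ketamine libraries differed from each other mostly in one direction. Ketamine 2 was below ketamine 1 for 40 of 43 members, against 52.0% of all tested genes, with a median log2 difference of -0.35. Set against each library in turn, a comparison chosen after seeing the data, the median was -0.42 for ketamine 1 minus control 1, -0.89 for ketamine 2 minus control 1, -0.43 for ketamine 1 minus control 2 and -0.81 for ketamine 2 minus control 2. These comparisons share libraries and are not independent. Both ketamine libraries were below control 2 for 41 of 43 members (95.3%, against 36.5% of all tested genes) and below control 1 for 32 (74.4%, against 44.2%). All 43 were lower in ketamine 2 than in control 2.

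**Figure D4:**
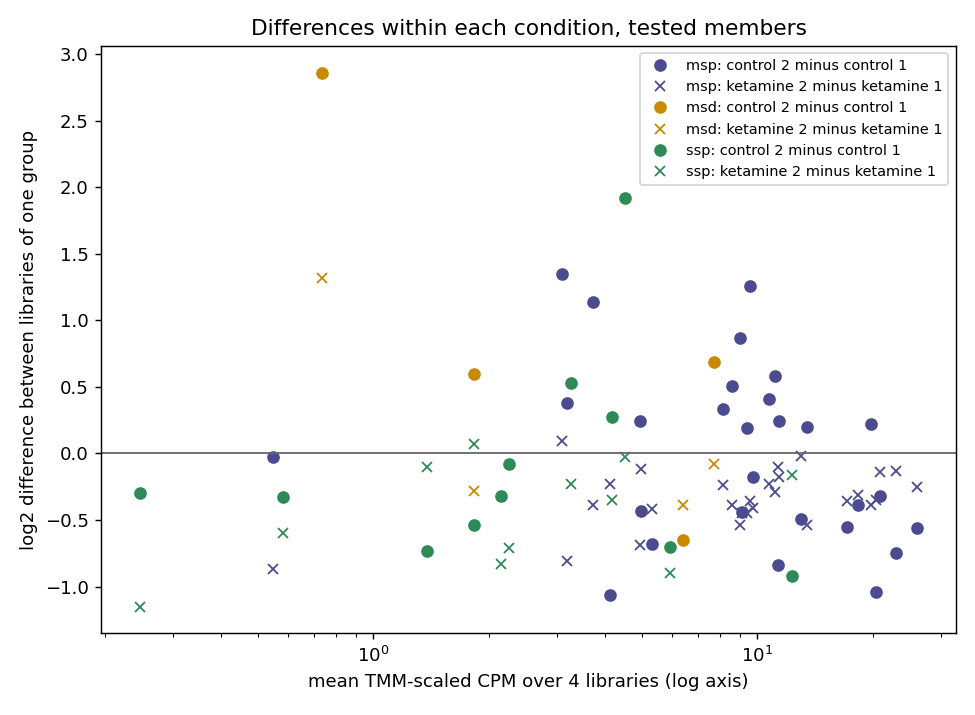
Log2 difference between the libraries of one group (y axis) against mean TMM-scaled CPM (x axis, log scale) for the 43 tested members, with circles for control 2 minus control 1 and crosses for ketamine 2 minus ketamine 1. The circles lie on both sides of 0, from -1.06 to 2.86, while 40 of the 43 crosses lie below 0.

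Leaving out control 2 changed the calls. Of 43 members, edgeR then called 15 lower (msp-31, msp-40, msp-81, msp-152, msp-33, msp-49, ssp-10, msp-59, msp-38, msd-2, ssp-35, msp-113, msp-10, msp-79 and ssp-33) and 2 higher (ssp-37 and F44D12.7). The background rose as well, to 4.29% of all genes called lower and 10.9% called higher, and the median of the members was -0.59 with 33 of 43 below 0. In this fit control 1 stands alone and was assumed to vary like the ketamine libraries. Leaving out control 1 gave 0 calls among the members, where 0.291% of all genes were called lower and 0.646% higher. In that fit msp-49 passed the adjusted p (edgeR, adjusted p = 0.0434) but not the 2-fold limit, with a log2 fold change of -0.90. Without control 1 the family had a median of -0.67 and 42 of 43 below 0. The median was -0.92 without ketamine 1 and -0.50 without ketamine 2.

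Other sperm genes were examined beside the members. Spermatogenesis regulators and genes for assembly of the fibrous bodies, the organelles in which MSP is packed, gave no such one-sided shift. Of 14 tested genes of this list, 0 were called in either direction and 7 were below 0, with a median of -0.03. The high end of the list was spe-6 (0.30, SE 0.24), a casein kinase needed for fibrous body formation, whose ketamine libraries were above both controls. The transcription factor gene spe-44 had 33.3 and 21.1 CPM in controls against 25.4 and 23.6 CPM with ketamine, so its groups overlapped. The sperm phosphatase gene gsp-3 had 11.4 and 11.8 CPM in controls and 9.37 and 7.31 under ketamine (-0.48, SE 0.25), and both ketamine libraries were lower. In sum the list amounted to 307 and 308 CPM in controls and 332 and 312 under ketamine.

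By its median, a list of sperm activation, fertilization and other sperm genes lay between the MSP family and all genes. Of 30 tested, 0 were called, 21 were below 0 and the median was -0.39, with both ketamine libraries below both controls for 11 (36.7%, against 20.6% of all tested genes) and above for 2 (6.67%, against 23.1%). The median was -0.25 without control 2. The low end was peel-1 (-1.45, SE 0.54), a sperm-delivered toxin gene, with 1.74 and 0.772 CPM in controls and 0.47 and 0.45 under ketamine. The high end was spe-42 (0.59, SE 0.66), a fertilization gene whose groups overlapped. In sum the list amounted to 340 and 333 CPM in controls and 317 and 268 under ketamine. The largest part came from zipt-7.1, with 138 and 86.5 CPM in controls and 111 and 106 under ketamine. The other Motile_Sperm genes of the deposited annotation, added after seeing the data, numbered 63, of which 48 were tested, 0 were called, 31 were below 0 and 18 had both ketamine libraries lower (37.5%, against 20.6% of all tested genes). Their median was -0.31, but -0.10 without control 2 and -0.12 without ketamine 2, and they ran from F58A6.9 (-1.52, SE 0.51) to F36H12.3 (0.63, SE 0.50). None of these medians was tested against that of the MSP family.

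Genes through which oocytes and sheath cells respond to MSP showed no one-sided shift. Of 25 tested genes, 0 were called, 13 were below 0, and the median was -0.07. Both ketamine libraries lay below both controls for 6 (24.0%) and above for 6 (24.0%), close to the 20.6% and 23.1% of all tested genes. The range was -0.38 (inx-9, a gap junction gene of the sheath, SE 0.27) to 0.30 (gsa-1, a G protein gene, SE 0.41). The MSP receptor gene vab-1 had 153 and 154 CPM in controls and 182 and 177 under ketamine (log2 fold change 0.23, SE 0.13, edgeR adjusted p = 0.748). Its ketamine libraries were higher than both controls. The NMDA receptor gene nmr-1, whose product has been linked to the oocyte response and belongs to a receptor class known as a target of ketamine, had 0.478 and 0.343 CPM in controls and 0.441 and 0.520 under ketamine, and its groups overlapped.

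Markers of other cell types and of sperm are given for the same libraries, and edgeR called 0 genes of these lists. At an unadjusted p under 0.05 and at least a 2-fold change, 2 furrow collagens were higher and 2 vitellogenins lower. By the same rule 323 of all 15793 tested genes were higher and 258 lower (1.63%). For 17 oocyte and eggshell genes, 10 had both ketamine libraries above both controls (58.8%, against 23.1% of all tested genes), 16 were above 0 and the median log2 fold change was 0.23, from puf-11 (-0.05) to cpg-1 (0.88). Their summed level was 12011 and 14904 CPM in controls and 17912 and 17616 CPM under ketamine. The 6 furrow collagens, cuticle genes expressed around moults, had both ketamine libraries above both controls in each case (100%, against 23.1%). Their log2 fold changes ran from 0.51 (dpy-10) to 2.38 (dpy-3). In sum they amounted to 9.33 and 13.2 CPM in controls and 28.5 and 18.3 CPM under ketamine. DESeq2 called dpy-3 higher (adjusted p = 0.0231). Over all 15793 tested genes DESeq2 called 109 higher and 23 lower. The 6 vitellogenins, yolk genes of the adult intestine, summed to 42820 and 76883 CPM in controls and 65173 and 65060 CPM under ketamine, which overlapped. Their median log2 fold change was -0.29, or -0.04 without control 2 and -0.54 without control 1. They were split, with both ketamine libraries below both controls for vit-1 (-1.18), vit-3 (-1.03, called lower by DESeq2, adjusted p = 0.044) and vit-4 (-0.57), and overlap for vit-2 (0.34), vit-5 (-0.02) and vit-6 (0.39). The 9 sperm markers, several of which stand in the lists above, had overlapping sums. These were 70.8 and 96.0 CPM in controls and 79.7 and 60.1 CPM under ketamine. The marker with the highest mean level, ssq-1, had 15.6 and 36.8 CPM in controls and 31.0 and 24.6 CPM under ketamine. Of the markers, 8 were tested, 6 were below 0 and the median was -0.37, or -0.17 without control 2. Both ketamine libraries lay below both controls for 4 of the 8, where 20.6% of all tested genes did so. Both lay above both controls for 0 of the 8, against 23.1%. No gene of these lists was at 0 counts in any library. The part of these markers in the lower level of the MSP family was not tested.

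**Figure D5:**
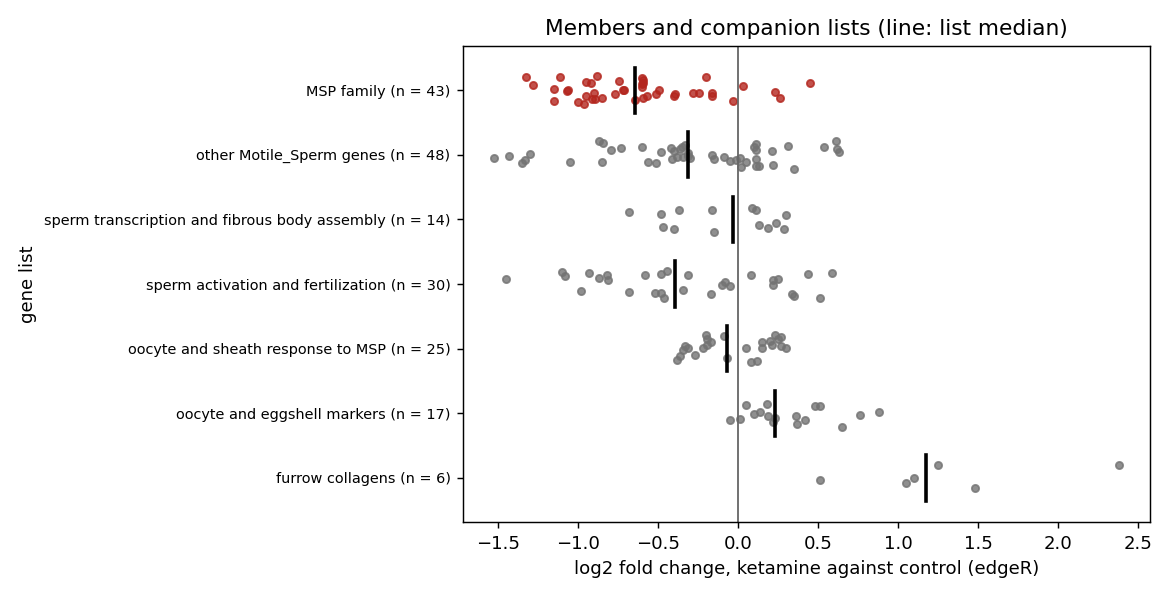
Log2 fold change of ketamine against control from edgeR (x axis) for the 43 tested members and for 6 companion lists, with 1 point per gene, spread vertically for visibility, and a line at each median. The MSP family has its median at -0.64, the other Motile_Sperm genes at -0.31 and fibrous body genes at -0.03. The list of activation, fertilization and other sperm genes stands at -0.39, and oocyte and sheath response genes at -0.07. Oocyte and eggshell markers stand at 0.23 and furrow collagens at 1.17.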

How the data were processed

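Whole-animal RNA of 4 libraries (2 control, 2 ketamine) had been made into stranded mRNA libraries. The authors aligned the reads to WBcel235 with HISAT2 2.0.5, assembled transcripts with StringTie 1.3.3b and counted with featureCounts 1.5.0-p3. The strand setting and the treatment of reads that match several copies are not given in the sources used here. The authors deposited whole-number counts per gene without normalization. FPKM values, deposited beside the counts, are scaled by gene length and library size. The table names its control columns WT1 and WT2, which were matched to the control samples by number. Symbols came from WormBase through the gene identifiers, and 46180 of 46643 rows matched. Exon numbers came from the reference annotation.

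Counts were tested with edgeR 4.0.16 in R 4.3.3 (quasi-likelihood, TMM, at least 10 counts in at least 2 libraries, Benjamini-Hochberg over 15793 genes, no replicate block). Sums were tested with an exact permutation test over libraries. The depth was 29.2 to 43.4 M counts, and the biological coefficient of variation was 0.287. Differences between single libraries were taken on log2(CPM + 0.1). Alternatives were DESeq2 1.42.0, limma 3.58.1 on log2(FPKM + 1) and log2(FPKM + 0.1), other scalings and filters, a replicate block and leaving out each library.

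The members and gene lists were chosen with earlier results of these data known. Named members were those called, the 4 of highest mean CPM in each of msp, msd and ssp, the 6 lowest and 4 highest fold changes among members with a mean count of at least 50 whose groups did not overlap, the ends of ranges, and, in companion lists, the genes at the ends except 1 that is not reported here. The genes spe-44, gsp-3, vab-1, nmr-1, ssq-1 and zipt-7.1, and the neighbouring and overlapping members, were singled out after their values were seen. The genes spe-7, spe-50, trp-3 (listed as spe-41) and efn-1 were not matched by symbol. Columns of the authors' own fold changes and p-values were not used.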

Additional observations from a re-analysis of the deposited data

How the results depend on the processing

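The family median of -0.64 stayed below 0 in every alternative run, between -0.92 (without ketamine 1) and -0.50 (without ketamine 2), and the summed log2 differences of msp, msd and ssp stayed below 0 in all of theirs. Calls were less stable. Over all genes, 15 were called higher and 0 lower, against 109 and 23 with DESeq2 and 67 and 6 with no filter on low counts. An unadjusted p under 0.05 with at least a 2-fold change, a rule also used for the members below, gave 323 and 258. With limma on log2(FPKM + 1), 24 were called higher, or 8 with no filter. Leaving out 1 library gave 21 to 1725 higher and 0 to 678 lower, in fits where the lone library was assumed to vary like the other group. Among the members, leaving out 1 library gave 0 to 2 higher and 0 to 15 lower, and an unadjusted p gave 6 lower. In the same fits the fibrous body list had 0 to 1 called higher and the activation list 0 to 4 called lower. Medians that changed sign with 1 library left out ranged from -0.54 to 0.41 for msd, from -0.06 to 0.05 for the fibrous body list (0.05 without ketamine 2), and from -0.07 to 0.06 for the oocyte and sheath list (0.06 without control 1, 0.03 without ketamine 2). Log2 fold changes that did so ranged from -0.49 to 0.24 for msd-4 (0.24 without control 2), -0.09 to 0.58 for F44D12.3 (-0.09 without control 1), -0.71 to 3.13 for F44D12.7 (-0.71 without control 1, -0.68 without ketamine 2), -0.26 to 1.76 for ssp-37 (-0.26 without control 1) and -0.24 to 0.33 for ssp-34 (-0.24 without control 1, -0.09 without ketamine 1), which was also -0.06 with upper-quartile factors. The median of all genes was -0.10 with upper-quartile scaling and -0.01 with TMM. The causes were not tested.

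The sample labels do not say that equal numbers mark a shared batch, so the numbers were not taken as pairing. Same-numbered libraries deviated together only weakly (correlation 0.0814, 2 pairs), which cannot show that pairing was absent. With the replicate block, 34 genes were called higher and 0 lower, 0 members were called and the family median was -0.66.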

Other observations

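Of the 5 msp rows that are annotated as pseudogenes and so lie outside the family rule, msp-71 had 37 and 32 counts in controls and 13 and 10 under ketamine, and msp-42 had 23 and 15 counts in controls and 7 and 5 under ketamine. Both had lower counts in both ketamine libraries. The pseudogene msp-52 had 5 and 2 counts in controls and 1 and 0 under ketamine, msp-58 had at most 1 count in any library, and msp-37 had 0 in all 4.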
